A study of Mus musculus with 3 samples.

Results

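The cullin ligase adaptors of the Asb, Klhl and Kbtbd families were followed in lower-limb skeletal muscle of mFoxO1KO mice and of control mice. The probes were chosen by gene name alone, as those whose gene symbol is Asb, Klhl or Kbtbd followed by a number. The scanner files carry accessions but no column of gene names, so the symbol was taken from the RefSeq transcript that each accession matches. This gave 77 of 39429 probes, for 61 of 32395 genes or unnamed transcripts: 24 probes of Asb genes, 42 of Klhl genes and 11 of Kbtbd genes. Kbtbd12, Klhl3 and Klhl33, 3 further protein-coding genes that follow the same pattern, had no matched probe and were not analysed here.

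In the mFoxO1KO mice the forkhead transcription factor gene Foxo1 carried an inducible deletion restricted to skeletal muscle, while the treatment of the control mice is labelled as none and their alleles are not given. Both groups were male C57BL/6 mice that ate the purified AIN93G diet with doxycycline (0.625 g/kg) from 8 to 14 weeks of age, so the controls had the inducer too, and the labels do not name the promoter that drove the deletion. RNA of 3 mFoxO1KO and 3 control samples was hybridised in pairs to 3 Agilent arrays of 2 colours on 1 slide, with mFoxO1KO RNA in Cy5 and control RNA in Cy3 each time. The dyes were never swapped, so a dye effect of a probe and the effect of genotype cannot be told apart. Nothing in the labels says whether a sample was 1 animal or a pool.

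Between 57.0% and 57.9% of spots were well above background in the mFoxO1KO channel, and between 53.1% and 56.9% in the control channel, with no spot saturated. All 18 skeletal muscle marker genes were measured, among them Acta1, Ckm and Myh4. The brighter Foxo1 probe had log2 levels of 9.83, 10.17 and 9.96 in mFoxO1KO muscle, against 11.33, 12.59 and 12.23 in control muscle, and whether it lies in the deleted stretch is not given in the sources used here. Foxo1 fell, with log2 ratios of -1.50, -2.42 and -2.27 on the arrays (limma, adjusted p = 0.0278), and without array 2 its adjusted p was 0.106. The other Foxo1 probe had -0.70, -1.64 and -1.84 (mean -1.39) and did not pass on its own (adjusted p = 0.0535 in a limma fit of single probes). Of 11 measured adipocyte markers, 10 had a mean ratio above 0 without passing and 1 fell (Car3, which muscle also expresses), with list medians of 2.85, 0.22 and 1.80 on the arrays. Lep and Ucp1 did not pass the background filter. The mean log2 level of the 11 adipocyte genes lay between 11.69 and 13.05 in mFoxO1KO samples and between 10.80 and 11.38 in control samples.

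Cullin-RING ligases are modular enzymes that attach ubiquitin to proteins, and the adaptor decides which protein is brought to the enzyme. Asb proteins recognise substrates through ankyrin repeats and join elongins and the scaffold CUL5 through a SOCS box. Klhl and Kbtbd proteins hold substrates on a kelch propeller and bind the scaffold CUL3 through a BTB domain. Muscle is rich in both kinds: Asb2 targets filamins and its excess thins muscle fibres in mice, Klhl40, Klhl41 and Kbtbd13 are mutated in human nemaline myopathy, and Klhl31 is needed for normal muscle in mice. FoxO factors are known for driving other ubiquitin ligase genes in wasting muscle, and bind a forkhead element in DNA.

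Promoters were read for these genes because the deleted factor binds DNA, and the scanner files hold no probe sequences. RefSeq promoters of GRCm38.p6, running 250 bases before to 50 after a start site, were found for 52 of the 61 genes (69 promoters). The forkhead core TGTTTAC, searched on both strands, stood in 2 of the 69 promoters (2.90%), against 3.65% of all 32851 promoters in the table. A loose form of the MEF2 core, CTA and TAG with any 4 bases between them, stood in 6 (8.70%), against 3.69% of all promoters. It reads the same on both strands and is wider than the MEF2 site, whose 4 middle bases are A or T. MEF2 factors drive many muscle genes. Both forkhead matches, in Asb16 and Asb18, lie in promoters that also hold a MEF2 match, and no matches overlap. Asb16, Asb18, Asb12, Klhl41, Asb1 and Kbtbd13 are the 6 with a match to this loose pattern. The middle bases are GGGG in Asb1 and TCTT in Kbtbd13, so these 2 are not MEF2 sites by letter, while the others have only A and T there. The promoters of Asb16 and Asb18 are shown with those of Asb12 and Klhl41, muscle genes with a MEF2 match. The promoter of Klhl2, which rose and holds neither pattern, is shown too. Capitals mark the matches, which are descriptions of the letters and not binding sites.
Asb16, GRCm38.p6, chr11:102268501-102268800, plus strand: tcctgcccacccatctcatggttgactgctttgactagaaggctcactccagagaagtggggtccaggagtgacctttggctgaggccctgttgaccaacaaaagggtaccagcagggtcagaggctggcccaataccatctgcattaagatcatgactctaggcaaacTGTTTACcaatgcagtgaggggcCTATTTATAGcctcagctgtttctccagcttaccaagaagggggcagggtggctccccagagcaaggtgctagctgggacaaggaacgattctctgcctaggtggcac
Asb18, GRCm38.p6, chr1:90014617-90014916, minus strand: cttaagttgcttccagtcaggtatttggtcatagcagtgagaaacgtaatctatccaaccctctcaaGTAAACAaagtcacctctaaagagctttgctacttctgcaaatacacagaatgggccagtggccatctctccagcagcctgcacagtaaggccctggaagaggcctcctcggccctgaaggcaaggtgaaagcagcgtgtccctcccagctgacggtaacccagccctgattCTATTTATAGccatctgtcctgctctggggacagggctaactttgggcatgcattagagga
Asb12, GRCm38.p6, chrX:95478080-95478379, minus strand: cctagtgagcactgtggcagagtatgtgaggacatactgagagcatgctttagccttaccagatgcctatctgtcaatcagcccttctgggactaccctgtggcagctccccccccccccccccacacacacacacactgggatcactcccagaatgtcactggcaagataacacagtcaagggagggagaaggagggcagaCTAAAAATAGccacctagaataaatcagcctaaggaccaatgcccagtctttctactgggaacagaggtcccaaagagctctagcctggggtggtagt
Klhl41, GRCm38.p6, chr2:69669870-69670169, plus strand: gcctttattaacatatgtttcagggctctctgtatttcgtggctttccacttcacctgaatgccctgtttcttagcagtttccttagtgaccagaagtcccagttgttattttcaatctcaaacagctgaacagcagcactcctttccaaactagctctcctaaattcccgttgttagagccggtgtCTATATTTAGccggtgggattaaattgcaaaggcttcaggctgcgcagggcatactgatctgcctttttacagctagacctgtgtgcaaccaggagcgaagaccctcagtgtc
Klhl2, GRCm38.p6, chr8:64849875-64850174, minus strand: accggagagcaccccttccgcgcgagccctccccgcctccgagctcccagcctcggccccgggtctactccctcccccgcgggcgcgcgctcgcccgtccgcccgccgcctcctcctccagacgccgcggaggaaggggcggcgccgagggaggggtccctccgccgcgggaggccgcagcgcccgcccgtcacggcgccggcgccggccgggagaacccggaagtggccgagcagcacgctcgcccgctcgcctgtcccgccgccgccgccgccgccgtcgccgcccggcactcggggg

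A probe was measured if it was well above background in the same channel on all 3 arrays, and of several probes of a gene the brightest was used. This held for 54 of the 77 probes and for 48 of the 61 genes (78.7%), against 53.9% of all genes on the array. Measured were 14 of 18 Asb genes, 27 of 35 Klhl genes and 7 of 8 Kbtbd genes. The 13 others were Asb3, Asb9, Asb16, Asb17, Kbtbd6, Klhl1, Klhl4, Klhl6, Klhl10, Klhl11, Klhl14, Klhl32 and Klhl35. Several of these are known from other tissues, such as Asb17 and Klhl10 from testis, Klhl1 from brain and Klhl6 from B cells. Asb17 and Klhl10 were above background on 0 of 3 arrays in either channel. Asb16, counted here among the muscle adaptors, was above background on 2 mFoxO1KO arrays and 1 control array.

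The comparison of mFoxO1KO with control muscle asks which transcripts differ when Foxo1 is deleted in muscle. Of the 48 measured adaptor genes 1 rose and 1 fell past an adjusted p of 0.05 (limma on log2 ratios against 0, Benjamini-Hochberg over 17460 genes), which is 4.17%, against 2.75% of all genes. Klhl2 rose (2.06% of all genes were higher) and Klhl8 fell (0.699% of all genes were lower). The other 46 did not pass. In bulk tissue, fewer cells of a type and less RNA per cell cannot be told apart. Most adaptor ratios were small and below 0: the mean log2 ratio was negative for 32 of 48 genes, with a median of -0.12, quartiles of -0.20 and 0.08 and a range of -0.49 to 0.59, while the median of all genes was 0.01. The direction against 0 depended on the scaling. With arrays only centred on their median, 15 of the 48 were below 0, and the median of all genes was 0.156. Below the median of all genes lay 32 of the 48 in the main setting and 31 with median centring only. The ratio had 1 sign on all 3 arrays for 33 of the 48 genes (68.8%), against 52.4% of all genes. Out of the 48, 23 were below 0 on every array and 10 above 0 on every array. The like shares of all genes were 24.5% and 27.9%. Before adjustment, 23 of the 48 genes (47.9%) had a limma p below 0.05, 16 lower and 7 higher, against 26.8% of all genes (11.5% lower and 15.3% higher).

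Klhl2, also called Mayven, binds actin and brings WNK kinases, which govern salt transport, to CUL3. Klhl2 had log2 levels of 8.38, 8.35 and 8.63 in mFoxO1KO muscle, against 7.81, 8.00 and 8.18 in control muscle. All mFoxO1KO samples were above all control samples. Its log2 ratios of 0.57, 0.35 and 0.45 averaged 0.46 ± 0.11 (SD, n = 3), or 1.37-fold (limma, adjusted p = 0.0492). Klhl2 passed in 7 of 12 alternative settings and in 0 of the 3 that leave out an array, with adjusted p of 0.0695, 0.168 and 0.104 without arrays 1, 2 and 3.

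Klhl8 is a little-studied CUL3 adaptor whose relative in C. elegans, KEL-8, governs the turnover of synaptic glutamate receptors. Klhl8 had log2 levels of 11.65, 11.55 and 11.63 in mFoxO1KO muscle, against 12.14, 12.09 and 12.06 in control muscle. Each mFoxO1KO sample was lower than every control sample, by similar amounts. Klhl8 fell by a mean of 0.49 on the log2 scale (ratios of -0.49, -0.54 and -0.43, SD 0.05, n = 3), or 1.4-fold (limma, adjusted p = 0.0396). It passed in 6 of 12 alternative settings, with limma adjusted p of 0.0525, 0.175 and 0.0766 without arrays 1, 2 and 3. With median centring only its ratio was -0.26 (limma, adjusted p = 0.324), where the median of all genes was 0.156.

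**Figure D1:**
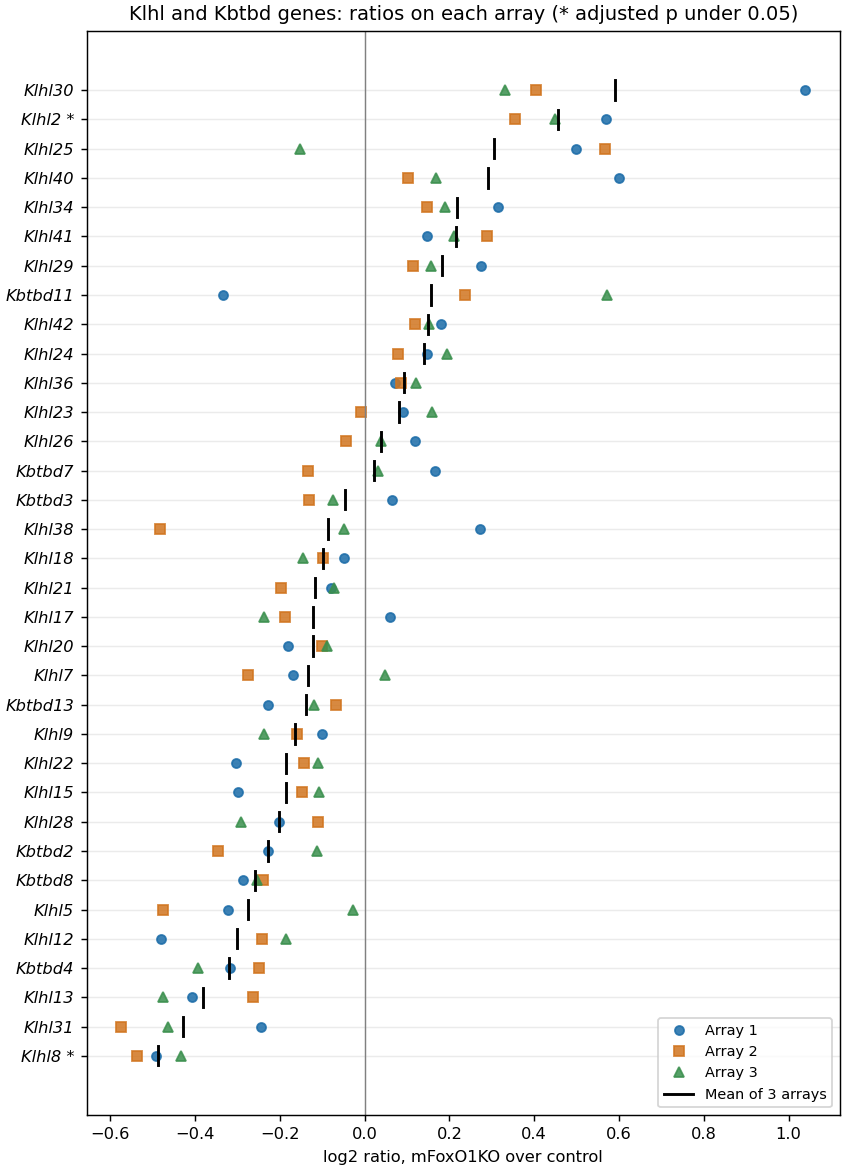
log2 ratio of mFoxO1KO over control for the 34 measured Klhl and Kbtbd genes, 1 point per array and a bar for the mean of 3 arrays. Klhl2 at 0.46 and Klhl8 at -0.49 (stars) passed the test, and Klhl30 has the highest mean with array 1 far to the right.

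The kelch genes of striated muscle had ratios in both directions. Klhl30, an adaptor enriched in muscle, had the highest mean ratio of all adaptors but did not pass. Klhl30 had log2 levels of 13.85, 14.23 and 13.97 in mFoxO1KO muscle, against 12.81, 13.83 and 13.64 in control muscle. The groups did not overlap, and the sample that stands apart is control 1, the lowest of the 6. The ratios of 1.04, 0.40 and 0.33 gave a mean of 0.59 ± 0.39 (limma, adjusted p = 0.102), and 0.37 without array 1. With median centring only Klhl30 was at 0.88 and passed (limma, adjusted p = 0.0079), where the median of all genes was 0.156. Median centring subtracts 1 value per array, so a shift that varies with brightness stays in. From the main setting to this one, the bright gene Asb2 went from -0.0008 to 0.32 and the dim gene Asb18 from -0.04 to -0.03. The value of 0.156 is therefore not a neutral point for every gene.

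Klhl40 keeps the thin filament proteins nebulin and leiomodin 3 stable, in this case without marking them for breakdown. Klhl40 had log2 levels of 11.88, 11.71 and 11.64 in mFoxO1KO muscle, against 11.28, 11.61 and 11.47 in control muscle. The groups did not overlap, and array 1 again had the widest gap. Its ratios of 0.60, 0.10 and 0.17 averaged 0.29 ± 0.27 (limma, adjusted p = 0.188), and 0.14 without array 1. Klhl30 and Klhl40 had their highest ratios on array 1, where the adipocyte list had its highest median of 2.85. Between the other two arrays, with adipocyte medians of 0.22 on array 2 and 1.80 on array 3, Klhl40 was higher on array 3 and Klhl30 higher on array 2. The part of adipose RNA in these ratios was not tested. Klhl41, a close relative of Klhl40 that acts in sarcomere assembly, was above 0 on every array, with 0.15, 0.29 and 0.21 (mean 0.22 ± 0.07, limma, adjusted p = 0.112). Klhl34, whose function is little known, had a mean of 0.22 ± 0.09 (adjusted p = 0.118 in limma) and was above 0 on all 3 arrays.

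Klhl31, by contrast, had lower levels in mFoxO1KO muscle with both of its probes, although the brighter one did not pass. Klhl31 had log2 levels of 13.77, 13.60 and 13.63 in mFoxO1KO muscle, against 14.01, 14.17 and 14.10 in control muscle. The groups did not overlap. The brighter probe had ratios of -0.24, -0.57 and -0.46 with a mean of -0.43 ± 0.17 (limma, adjusted p = 0.0663), and the other probe -0.39, -0.56 and -0.44 with a mean of -0.46 ± 0.09 (adjusted p = 0.0457 in a limma fit of 21393 single probes, 2.75% of which passed). The brighter probe passed without array 1 (-0.52, limma, adjusted p = 0.0487) and was at -0.14 with median centring only. Klhl38 differed between arrays, with 0.27, -0.48 and -0.05, so that its mean of -0.09 has a SD of 0.38. Kbtbd13 had a mean of -0.14 ± 0.08 (limma, adjusted p = 0.23), or -0.02 with median centring only, where the median of all genes was 0.156.

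**Figure D2:**
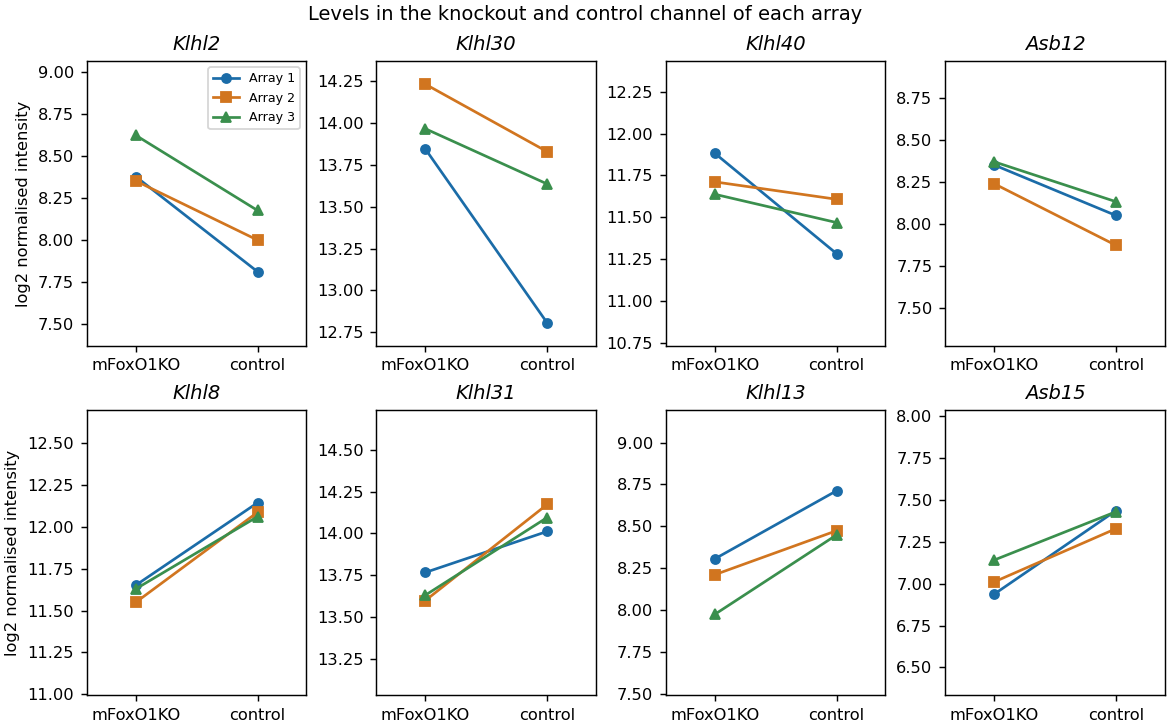
log2 normalised intensity of 8 adaptor genes in the mFoxO1KO channel (left) and the control channel (right), with a line for each array and the same span of 1.7 on every vertical axis. The upper row holds genes with higher and the lower row genes with lower mFoxO1KO levels, with control 1 of Klhl30 the lowest point of its panel at 12.81. The 8 genes were picked for display, and no panel's groups overlap. Klhl25, with a higher mean than Asb12 and Klhl40, overlaps between groups and is not shown. Of all genes tested, 25.9% did not overlap.

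The kelch adaptors Klhl9, Klhl12, Klhl13, Klhl20, Klhl21 and Klhl22 had mean ratios below 0 and did not pass. With median centring only, the median of all genes was 0.156. Klhl9 (0.09), Klhl20 (0.07) and Klhl22 (0.04) were then above 0 but below that median, and Klhl21 was at 0.16. Klhl12 (-0.09) and Klhl13 (-0.22) were still below 0. Klhl9 and Klhl13 are close relatives that guide Aurora B in mitosis. Klhl13 had log2 levels of 8.31, 8.21 and 7.97 in mFoxO1KO muscle, against 8.71, 8.47 and 8.45 in control muscle. The groups did not overlap, and the mean ratio of -0.38 ± 0.11 (limma, adjusted p = 0.0584) had 1 sign on all arrays. Klhl9 had -0.17 ± 0.07 (adjusted p = 0.168 in limma), and whether either probe also binds the other transcript was not tested. Klhl21, which acts on Aurora B as well, had -0.12 ± 0.07, and Klhl22, an adaptor for the mitotic kinase Plk1 and for Depdc5, -0.18 ± 0.10 with its brighter and -0.05 ± 0.03 with its other probe. Klhl12, which helps to enlarge COPII coats for collagen export, had -0.48, -0.24 and -0.19 (mean -0.30 ± 0.16, limma, adjusted p = 0.103). Klhl20, an adaptor for Pml and Dapk1, had -0.12 ± 0.05.

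Higher on average were Klhl24, an adaptor for keratin 14 in skin, with 0.14 ± 0.06 (limma, adjusted p = 0.205), and Klhl25, an adaptor for the translation repressor Eif4ebp1. The Klhl25 ratios of 0.50, 0.57 and -0.15 changed sign on array 3, so its mean of 0.30 ± 0.40 is within the spread of the arrays (limma, adjusted p = 0.279). The second Klhl25 probe had 0.09 ± 0.04. Among Kbtbd genes, Kbtbd4 had the lowest mean, with -0.32, -0.25 and -0.39 on the arrays (mean -0.32 ± 0.07, limma, adjusted p = 0.0648), and its groups did not overlap. Kbtbd2, which removes the PI3-kinase subunit Pik3r1 and so keeps insulin signalling intact in mice, had -0.23, -0.35 and -0.11 (mean -0.23 ± 0.12, limma, adjusted p = 0.127). With median centring only, Kbtbd4 was at -0.11 and Kbtbd2 at -0.01, where the median of all genes was 0.156. Kbtbd11 ran the other way on array 1, with -0.33, 0.24 and 0.57, and its mean of 0.16 has a SD of 0.46.

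No Asb gene passed. Of the 14 measured, 12 had a mean ratio below 0, with a median of -0.13 and a range of -0.37 to 0.30, and 7 were below 0 on every array while Asb12 alone was above 0 on every array. With median centring only, 4 of the 14 were below 0, at an Asb median of 0.08 against 0.156 for all genes. Asb15, a muscle gene linked to protein turnover in myotubes, was the lowest. Asb15 had log2 levels of 6.94, 7.01 and 7.14 in mFoxO1KO muscle, against 7.44, 7.33 and 7.43 in control muscle. These levels were low, though above background on all 3 arrays in both channels. The groups did not overlap. Its mean ratio was -0.37 ± 0.11 (limma, adjusted p = 0.0633), and it passed in 3 of 12 alternatives, with the software's own log ratio (-0.94), with scaling between arrays (-0.36) and in a fit of separate channels (-0.37).

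Asb12, another muscle transcript whose promoter with a MEF2 match is shown above, was the highest Asb gene. Asb12 had log2 levels of 8.35, 8.24 and 8.37 in mFoxO1KO muscle, against 8.05, 7.87 and 8.13 in control muscle. The groups did not overlap, and the mean ratio was 0.30 ± 0.06 (limma, adjusted p = 0.0679). Asb2 showed no common direction, with 0.23, -0.24 and 0.01 on the arrays (mean -0.0008, SD 0.24, limma, adjusted p = 0.997). Asb5, known from growing arteries and from satellite cells, had 0.10, -0.34 and -0.16, and Asb11 0.16, 0.08 and -0.02, so neither kept 1 sign. Asb10 had -0.10 ± 0.02 with its brighter and -0.17 ± 0.02 with its other probe, and Asb14 -0.20 ± 0.04 (limma, adjusted p = 0.117). With median centring only the brighter Asb10 probe was at 0.14 and Asb14 at 0.04, both below the median of 0.156 of all genes. Asb18, whose promoter holds the other forkhead match, had -0.04 ± 0.11 (limma, adjusted p = 0.761). Its log2 levels were low, between 6.77 and 6.93, and its other probes did not pass the background filter. Over the 12 alternatives the Asb18 ratio ran from -0.32, with the software's own log ratio, to 0.009, and it passed in none.

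The probes of Asb8 and of Asb4 differed in the sign of their mean ratio (for Asb4, -0.14 with the brighter and 0.08 with the other). Those of Asb8 had opposite signs on every array. The brighter Asb8 probe had -0.02, -0.24 and -0.31 (mean -0.19 ± 0.15) and the other, designed on a different RefSeq transcript, 0.49, 0.19 and 0.15 (mean 0.28 ± 0.19, limma, adjusted p = 0.134 on its own). Asb4, known from vascular development of the placenta, had 0.52, -0.46 and -0.46 with its brighter probe and 0.33, -0.05 and -0.06 with its other probe, so both were above 0 on array 1 and below 0 on arrays 2 and 3. Asb4 had log2 levels of 11.78, 11.27 and 10.55 in mFoxO1KO muscle, against 11.26, 11.73 and 11.01 in control muscle. The groups overlapped, and without array 1 the brighter probe was at -0.46. The adipocyte medians were 2.85, 0.22 and 1.80 on the arrays, while the brighter Asb4 probe had -0.46 on both array 2 and array 3. The part of adipose RNA in the Asb4 ratio was not tested. Asb6, which pairs with the insulin receptor adaptor Sh2b2 in fat cells, had -0.23, -0.33 and -0.19 (mean -0.25 ± 0.07, limma, adjusted p = 0.0922) and did not overlap between groups. With median centring only Asb6 was at -0.05, where the median of all genes was 0.156. Asb7 was as even as Asb6 across arrays, with -0.30, -0.32 and -0.23 (mean -0.28 ± 0.05, limma, adjusted p = 0.0699).

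**Figure D3:**
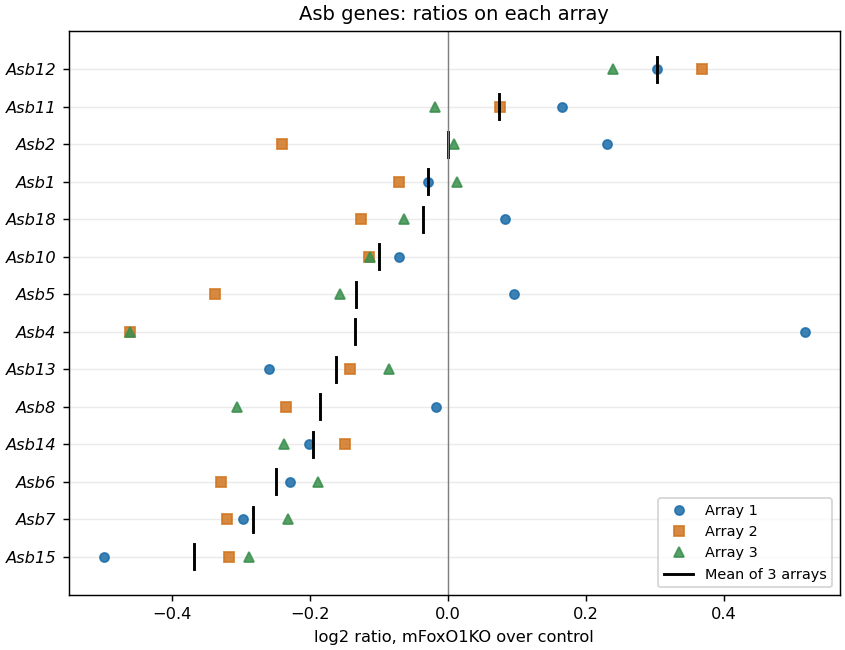
log2 ratio of mFoxO1KO over control for the 14 measured Asb genes, 1 point per array and a bar for the mean of 3 arrays. Asb12 at 0.30 and Asb15 at -0.37 are the ends of the range, and Asb4 has array 1 at 0.52 with arrays 2 and 3 on top of each other at -0.46.

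Across all 48 measured adaptor genes, the levels of 22 did not overlap between groups, 7 with higher and 15 with lower mFoxO1KO levels. Of all genes tested, 25.9% did not overlap, 14% with all mFoxO1KO samples higher and 11.9% with all of them lower. Klhl30 was the one adaptor whose mean log2 ratio was above 0.5 in size (2.08%), against 4.86% of all genes. The widest spread over arrays was that of Asb4, followed by Kbtbd11, Klhl38 and Klhl25. Ratios of array pairs across the 48 genes had Pearson's r of 0.595 for arrays 1 and 2, 0.513 for arrays 1 and 3 and 0.723 for arrays 2 and 3, against 0.538, 0.509 and 0.533 for the same pairs over all genes, as a description over genes that share the samples.

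**Figure D4:**
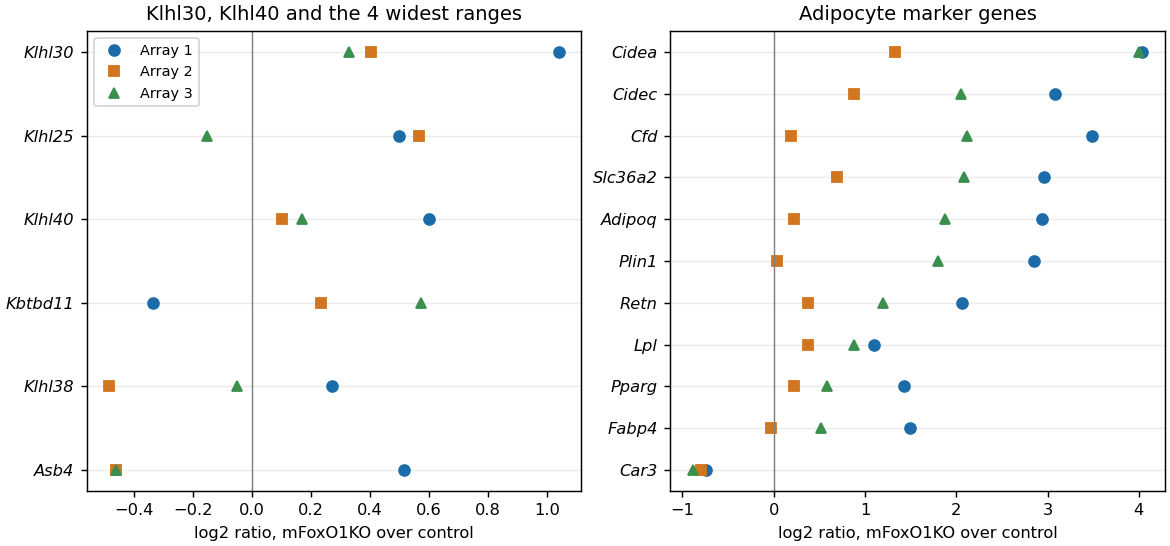
log2 ratio of mFoxO1KO over control on each array for 6 adaptor genes (left) and for the 11 measured adipocyte marker genes (right), with different horizontal scales. Klhl30, Klhl40, Klhl38 and Asb4 have their highest ratio on array 1, as all 11 adipocyte genes do, while Kbtbd11 has its lowest there.

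The scaffold and core of the ligases showed no called change. Of 6 measured genes of the CUL5 core none passed, and 5 of 6 means were below 0 (median -0.19), while with median centring only all 6 were above 0 at a median of 0.11, below the 0.156 of all genes. Cul5 itself had -0.01 ± 0.01, the elongin genes Eloc and Elob -0.23 ± 0.11 and -0.21 ± 0.21, and the ends of the list were Arih2, a ubiquitin ligase that works with CUL5, with -0.25 ± 0.11 and the NEDD8-conjugating enzyme gene Ube2f with 0.13 ± 0.07. Of 4 genes of the CUL3 core none passed, and all 4 means were above 0 (median 0.11), or 3 of 4 without array 3 (median 0.03). Cul3 had 0.11 ± 0.13, and the list ran from Arih1 at 0.03 ± 0.04 to Ube2m, which had 0.00, -0.35 and 0.77 on the arrays. The median of all genes was 0.01.

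Of 19 measured genes of cullin neddylation, the COP9 signalosome and adaptor exchange, none passed, with a median of 0.00. The highest was Cand2, a muscle-enriched factor that exchanges adaptors on cullins. Cand2 had log2 levels of 11.67, 11.56 and 11.65 in mFoxO1KO muscle, against 10.85, 11.08 and 11.23 in control muscle. Its mean ratio was 0.58 ± 0.22 (limma, adjusted p = 0.0561), and it passed in 5 of 12 alternatives. The lowest was Dcun1d1, which helps NEDD8 onto cullins, with -0.27 ± 0.21. Among 16 SOCS-box adaptors outside the Asb family none passed (median -0.04), between Socs7 at -0.30 ± 0.29 and the cytokine signalling inhibitor Socs3, which had 0.36, 1.29 and 0.31 (limma, adjusted p = 0.143).

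Among 23 CUL3 adaptors with other names, 1 rose, which is 4.35% against 2.75% of all genes. It was Enc1, a kelch protein of the same build as the Klhl family. Enc1 had log2 levels of 8.73, 8.88 and 8.97 in mFoxO1KO muscle, against 7.79, 8.22 and 8.09 in control muscle. Its ratio was 0.83 ± 0.15 (SD, n = 3), or 1.77-fold (limma, adjusted p = 0.0278), and it passed in 9 of 12 alternatives, with adjusted p of 0.0781 without array 2, 0.0602 without array 3 and 0.0503 with the software's own log ratio. The lowest was Spop, an adaptor without a kelch domain, with -0.30 ± 0.13 (limma, adjusted p = 0.0922).

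Of 27 measured partners and substrates of the adaptors, 1 rose and 26 did not pass (3.70%, against 2.75% of all genes, and a median of 0.01). The gene that rose was Sh2b2, the partner of Asb6, with 0.78, 0.56 and 1.12 on the arrays (mean 0.82 ± 0.29, or 1.77-fold, limma, adjusted p = 0.0491). It passed in 6 of 12 alternatives. Adipocyte markers had medians of 2.85, 0.22 and 1.80 on the same arrays, and their part in the Sh2b2 ratio was not tested. In adjusted p without arrays 1, 2 and 3 it had 0.0695, 0.121 and 0.0658. Neb, the gene of the Klhl40 partner nebulin, was lowest with -0.67, -0.43 and -0.36 (mean -0.49 ± 0.16, limma, adjusted p = 0.0549), and its other probe had -0.15 ± 0.21. Neb passed in 4 of 12 alternatives. Lmod3, the other thin filament partner, had -0.34 ± 0.14 (limma, adjusted p = 0.079), while Klhl40 had 0.29. Pik3r1, the substrate of Kbtbd2, had 0.30 ± 0.21 (limma, adjusted p = 0.137) beside -0.23 for Kbtbd2. All ratios of partners and substrates are of transcripts, and their proteins were not measured. With median centring only, Kbtbd2 was at -0.01, against a median of 0.156 for all genes. Flnc, the gene of a filamin that Asb2 targets, had 0.53 ± 0.20 (limma, adjusted p = 0.0567).

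**Figure D5:**
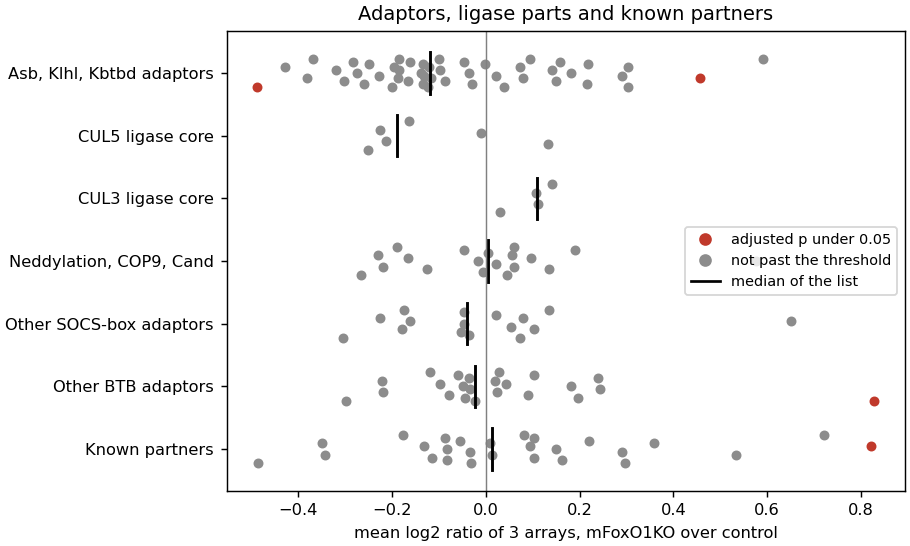
Mean log2 ratio of mFoxO1KO over control for the 48 measured adaptor genes and for 6 lists of related genes, 1 point per gene, in red where the adjusted p is under 0.05, with a bar at each list's median. Klhl8, Klhl2, Enc1 and Sh2b2 are the red points, and the adaptor median lies at -0.12 and that of the CUL3 core at 0.11.

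Which adaptors passed changed with the processing, as did the share of all genes that passed. Klhl2 and Klhl8 were the 2 adaptors called without background subtraction (2.57% of all genes called), without the filter on dim probes (2.3%) and with an intensity trend in the variance (3.87%). Scaling between arrays added Asb15 (4.75%). Median centring only called Klhl2 and Klhl30 (6.9%), and the log ratio of the scanner software Asb15 alone (1.15%). No adaptor passed where both channels had to be above background (0.337%), without array 2 (0.281%) or without array 3 (0.899%), and Klhl31 alone passed without array 1 (2.32%). A limma fit of separate channels called 11 adaptors (9.35%), which were Klhl2 and Asb12 as higher and Klhl8, Klhl12, Klhl13, Klhl31, Kbtbd4, Kbtbd8, Asb6, Asb7 and Asb15 as lower.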

How the data were processed

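Per the file headers, the deposited values came from Agilent Feature Extraction 11.5.1.1, while the submitters' processing notes name version 9.3.2.1. The deposited spot and background intensity values are medians as scanned, in both channels. The deposited log ratios, on a log10 scale, set processed Cy5 against Cy3 signal after the software's own background and dye correction. Per the labels, 0.2 µg of RNA was labelled.

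Median signals were corrected with normexp (offset 50) and loess-normalised within arrays, with control spots at weight 0 (limma 3.58.1, R 4.3.3). Mean signals, which the plan named, were not in the columns used. Between 281 and 319 non-control spots per array, marked as outliers by the software, were left out. A probe with several spots counted as above background where a share of at least 0.5 of them was. Accessions without their version gave symbols to 27508 of 39429 probes (69.8%) through the GRCm38.p6 RefSeq table. Levels are Aquantile-scaled between arrays, which leaves ratios as they are. Ratios on the log2 scale, knockout over control, were set against 0 in an intercept fit (lmFit, eBayes, two-sided), with p-values adjusted over 17460 genes. Errors are SD over 3 arrays. The fit was run on simulated data with independent noise and no dye effect. Its mark for recovery was set on changes far larger than those of Klhl2 and Klhl8. That run therefore cannot speak to the calls reported here. The array pairs the 2 channels. P-values measure the spread between these samples only, which may be technical, and the number of arrays limits precision.

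The adaptor genes and all lists were chosen with earlier results of these data known. Named are adaptors past the threshold, those in lists of muscle and signalling adaptors, the 6 highest and 6 lowest means, the 4 widest ranges, genes whose probes differ in sign, and in each list of related genes those past the threshold and its highest and lowest. Asb7, Cul5, Cul3, Eloc, Elob, Lmod3, Pik3r1 and Flnc were named outside that rule or for their partner, after their values were seen. Alternatives changed background, signals, dye and array scaling, filter, probe choice, variance model and channel model, or left out an array.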

Additional observations from a re-analysis of the deposited data

How the results depend on the processing

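Klhl2 stayed above 0 and Klhl8 below 0 in all 12 alternative settings, while their calls did not hold in each. The main setting called 481 of all genes and 2 adaptors, 1 higher and 1 lower. No background subtraction gave 2 adaptor calls, as did no filter on dim probes (746 of all genes) and an intensity trend in the variance. The software's log ratio called 200 of all genes and 1 adaptor, 0 higher. Median centring only called 1204 of all genes, with 2 adaptors higher and 0 lower. Scaling between arrays called 830 of all genes and 2 adaptors lower. Testing each probe gave 2 lower adaptor probes. Requiring both channels above background left 55 of all genes and 0 adaptors, 0 higher and 0 lower, where Klhl8 had an adjusted p of 0.0532 and Klhl2 of 0.0576 with the same ratios. A fit of separate channels with the array as a replicate block (intraspot correlation 0.412) called 1633 of all genes and 11 adaptors, 2 higher and 9 lower, 9.35% of all genes being called. Leaving out 1 array gave 49 to 405 calls over all genes, 0 to 1 adaptors, 0 higher and 0 to 1 lower. Without array 2 it was 49 and 0 adaptors, without array 3 157 and 0, and without array 1 405 and 1, Klhl31. Foxo1 ranged from -2.35 to -1.88 without 1 array and kept its sign in all 12 settings. The cause of these changes was not tested.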
